A study of Homo sapiens with 10 samples.

Results

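The cytosolic ribosomal protein genes are the genes for the proteins of the large (RPL) and small (RPS) subunit of the ribosome that translates mRNA in the cytosol. They were chosen by symbol among protein-coding genes, with the acidic stalk proteins RPLP0, RPLP1 and RPLP2 and the laminin receptor protein RPSA added and the Y-linked copies of RPS4 left out, a rule that uses no measured value but was proposed with earlier results of these data known. This gave 84 genes, 52 of the large and 32 of the small subunit, out of 63152 gene identifiers, and all 84 were listed in each expression table. The cells were C33A, a human cervical carcinoma line described as deficient in SWI/SNF, the chromatin remodelling complex that BRG1 or BRM drives as its ATPase. Each of 5 groups had 2 libraries of cDNA primed with oligo-dT, made 48 h after a transient transfection with a lipid reagent. The control received the empty pOPRSVI vector, BRG1-wt and BRG1-mut received human BRG1 from pBJ5 plasmids, and BRM-wt and BRM-mut received human BRM from pCG plasmids, where the mut forms carry a point mutation that removes the ATPase activity. The control therefore has another plasmid backbone than the ATPase groups, and the effect of the backbone cannot be told apart from that of the ATPase. A library averages transfected and untransfected cells, so that the share of cells that responded and the RNA per cell cannot be told apart. The sources do not say whether the 2 libraries of a group came from separate cultures, and p-values then measure only the spread between these libraries.

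Most ribosomal proteins are made in equal numbers for each ribosome, and ribosomal protein mRNAs are among the most abundant of a growing cell. Most of these mRNAs begin with a cytosine followed by a run of pyrimidines, the terminal oligopyrimidine (TOP) tract, through which the mTOR kinase pathway regulates their translation. Many of the genes are short, hold small nucleolar RNAs (snoRNAs) in their introns and have numerous processed pseudogenes elsewhere in the genome. Free RPL5 and RPL11 bind MDM2 and so stabilise p53, and variants in several of these genes cause Diamond-Blackfan anaemia, a failure of red blood cell formation.

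The same 2 control libraries served all 4 ATPase groups. The expression tables give a base mean, which is the mean of normalised counts over the 4 libraries of a comparison, the log2 fold change after shrinkage, its standard error (SE), and p-values before and after adjustment, but no value per library. The files give no depth per library and no reads behind a splicing value. The transfected genes followed the labels. SMARCA4, the gene of BRG1, had base means of 25802 and 29824 in the tables of BRG1-wt and BRG1-mut and of 3864 and 3076 in those of BRM-wt and BRM-mut. SMARCA2, the gene of BRM, was at 12.6 and 9.33 in the BRG1 tables and at 59658 and 75591 in the BRM tables. Of the epithelial markers, KRT8 had base means between 90.8 and 456 and KRT18 between 263 and 696, both lowest in the tables of the mut forms, EPCAM lay between 22.6 and 30.2, CDH1 between 3.05 and 6.27 and KRT19 at 1.23 or below. Their part in the results was not tested. Of the markers of other cell types, CD3E and HBB were listed at 0 in all 4 tables, HBA1 and VWF lay below 5, LUM and COL1A1 between 19.1 and 39, COL1A2 between 198 and 280 and the leukocyte phosphatase PTPRC between 1529 and 1851. The exon events of BRM-wt went in opposite directions in its 2 libraries for nearly all genes, with 13 of 293 events in the same direction, against 134 of 145 in BRG1-mut.

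The levels of the ribosomal protein genes were high for their length. The base mean was at least 100 in 81 genes, and RPL3L and RPL10L were among the other 3. Per kilobase of the canonical transcript, the median base mean of these 81 genes was 6804, against 423 for 10465 protein-coding genes with the same minimum, and 25 of the 100 genes with the highest level per kilobase were ribosomal protein genes. RPS4X, the X-linked form of eS4, had the highest level per kilobase at 61180, followed by RPL11 (55904) and RPS24 (50793), and the lowest of the 81 were RPS27L (160), RPS26 (299) and RPS28 (336). Their summed base mean made up 2.38% of that of all genes in the table of BRG1-wt, 2.51% in BRG1-mut, 2.25% in BRM-mut and 2.29% in BRM-wt. The canonical transcripts had a median length of 869 bases against 3549 for the 10465 genes, and a median GC content of 47.4% against 47.3%. Ranks per kilobase depend on these annotated lengths, which need not be those of the forms in C33A. The length used for RPS27L is 6110 bases.

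Many reads were counted at annotated pseudogenes of these genes, and which of them came from the genes is not known. The tables list 1597 annotated pseudogenes of the 84 genes, of which 98 had a base mean of at least 100, and their summed base mean was 36.3% of that of genes and pseudogenes together. In 26 of the 84 genes, the pseudogenes held more than the gene. RPL7 had a base mean of 591 at the gene and 41485 at its pseudogenes, so that 1.40% lay at the gene, and RPS27 (1.12%), RPL17 (1.92%), RPL36A (5.02%), RPL21 (7.27%) and RPS3A (10.9%) were of the same kind. In 43 genes at least 90% lay at the gene, among them RPL5 (96.6%) and RPL35A (99.9%). The level of a gene with a low share is uncertain, since reads of the gene and of its copies cannot be told apart here. RPL7L1, a paralogue with 99.5% at the gene, had 2726 per kilobase against 479 for RPL7, whose pseudogenes are not counted in that value.

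**Figure D1:**
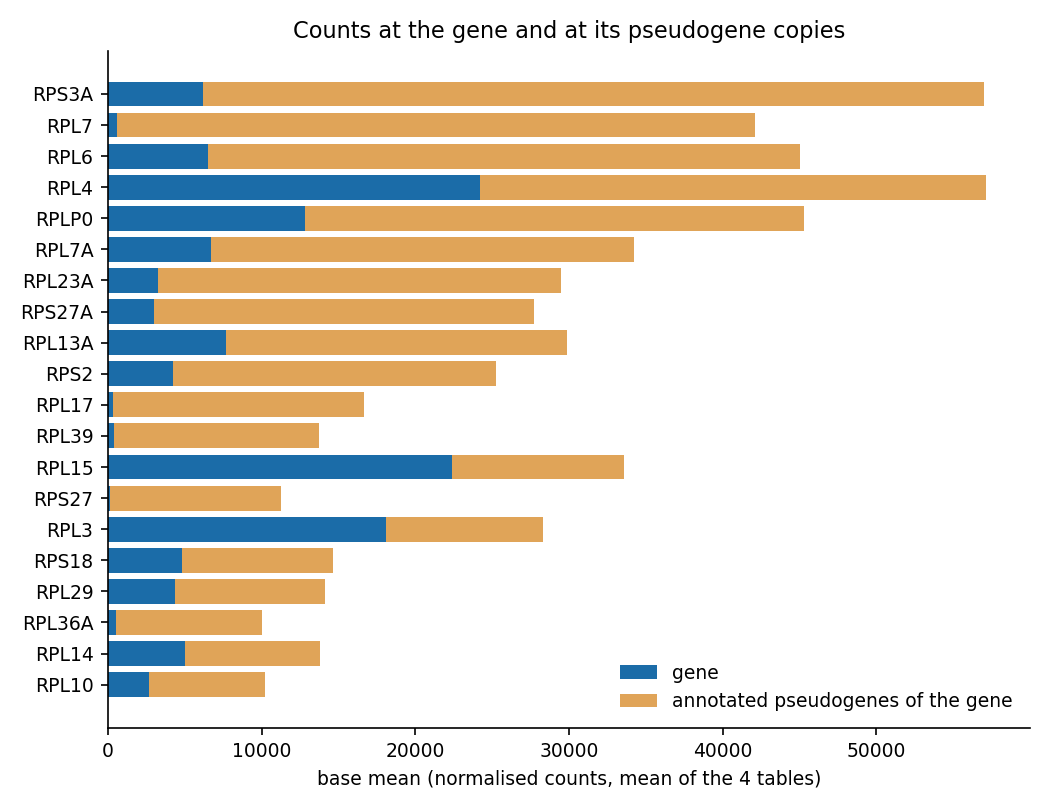
Base mean (normalised counts, mean of the 4 tables, horizontal axis) at the 20 ribosomal protein genes with the highest counts at their pseudogenes, split into the gene (blue) and its annotated pseudogenes (orange). For RPS3A, RPL7 and RPL6 most of these counts lie at the pseudogenes, and for RPL15 and RPL3 at the gene.

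The other paralogues were compared with their parent genes by the level per kilobase. RPL22L1 had 8427 against 5048 for RPL22, RPL39L had 508 against 1014 for RPL39, RPL26L1 had 634 against 1902 for RPL26, and RPS27L had 160 against 360 for RPS27. These ratios do not count the pseudogenes, and the share at the gene was 66.0% for RPL22, 2.88% for RPL39, 13.2% for RPL26 and 1.12% for RPS27, while the 4 paralogues have no listed pseudogene. RPL3L, a form known from striated muscle, and RPL10L, a form known from testis, lay at 3.13 and 0.589, far below RPL3 (13960) and RPL10 (1234). By base mean without the division, RPS27L lay above RPS27 (978 against 127), with annotated lengths of 6110 and 352 bases. The other pairs kept their order.

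The start sites of these genes were examined because the TOP tract defines how their mRNAs are regulated. RefSeq sequences around the start (GRCh38.p14) were matched for 67 of the 84 genes, and in 43 of them (64.2%) the start base was C with 4 pyrimidines after it, against 4.65% of 15318 protein-coding genes. The windows of the 6 genes that the expression results turn on run from 10 bases before the start to 10 bases after it, with the first 5 transcribed bases in capitals. They lie at chr19:5690285-5690304, chr15:69452808-69452827, chr11:809957-809976, chr20:62387093-62387112 and chr19:1438386-1438405 on the plus strand and, for RPL29, at chr3:51995886-51995905 on the minus strand.
RPL36: cggcgccagcCCTTCcgcca
RPLP1: ggcgcgagagCCCCTttcct
RPLP2: tcggcgccttCCTTTtcctc
RPS21: ctagctgcttCCTTTctctc
RPS15: aggcgcggacCAAAGcgatc
RPL29: cagcccctttCTCTTccggt
The tract was present at the annotated start of 5 of these 6 genes and not in the RPS15 window. The annotated start need not be the one used in C33A. Within 5 bases before to 10 bases after the start, 51 of the 67 genes (76.1%) had such a tract, against 22.2% of the protein-coding genes. In BRG1-mut, the median log2 fold change was 0.16 for the 43 genes with the tract exactly at the annotated start. It was 0.18 for 23 without it there, some of which may have it nearby, and the difference was not tested.

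The expression of the 84 genes was compared with control in each ATPase group, to ask whether the remodelling ATPases move these genes and whether this needs the ATPase activity. In BRG1-mut, 6 of the 84 genes rose and none fell (adjusted p under 0.05, DESeq2), against 4.86% of 13548 genes tested that rose. The genes were RPL36, RPLP1, RPS15, RPL29, RPLP2 and RPS21, and 82 of the 84 had been given an adjusted value. In BRG1-wt, BRM-wt and BRM-mut, 0 of the 84 genes passed this threshold in either direction, and the shares of all genes that rose were 1.38%, 0.567% and 0.00703%. At an unadjusted p under 0.05 (DESeq2), 20 of the 81 ribosomal protein genes whose base mean reached 100 passed in BRG1-mut, all higher, against 0 of 81 in each of BRG1-wt, BRM-wt and BRM-mut. Among all genes with that base mean, 17% passed the same threshold in BRG1-mut, counting either direction. The corresponding shares were 0.0848% for BRM-mut, 1.72% for BRM-wt and 4.73% for BRG1-wt. Whether the effect in BRG1-mut differs from that in the other groups was not tested, since the tables hold no such comparison.

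The median log2 fold change of the 81 genes was 0.04 in BRG1-wt (-0.22 to 0.30, 53 above 0), 0.18 in BRG1-mut (-0.30 to 1.27, 66 above 0), 0.01 in BRM-wt (-0.17 to 0.19, 43 above 0) and -0.05 in BRM-mut (-0.15 to 0.18, 30 above 0). At the same minimum, the medians over all genes were -0.01, -0.04, 0.01 and -0.0034. The median SE of the 81 genes was 0.15, 0.19, 0.25 and 0.15 in the same order. Each table holds only its group and the control, so the degree of shrinkage may differ between tables. The SE of RPL36, for example, was 0.32 in BRG1-mut and 0.083 in BRM-mut. Sizes and SE therefore need not be on one scale between groups, and a narrow range does not show that genes did not change.

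**Figure D2:**
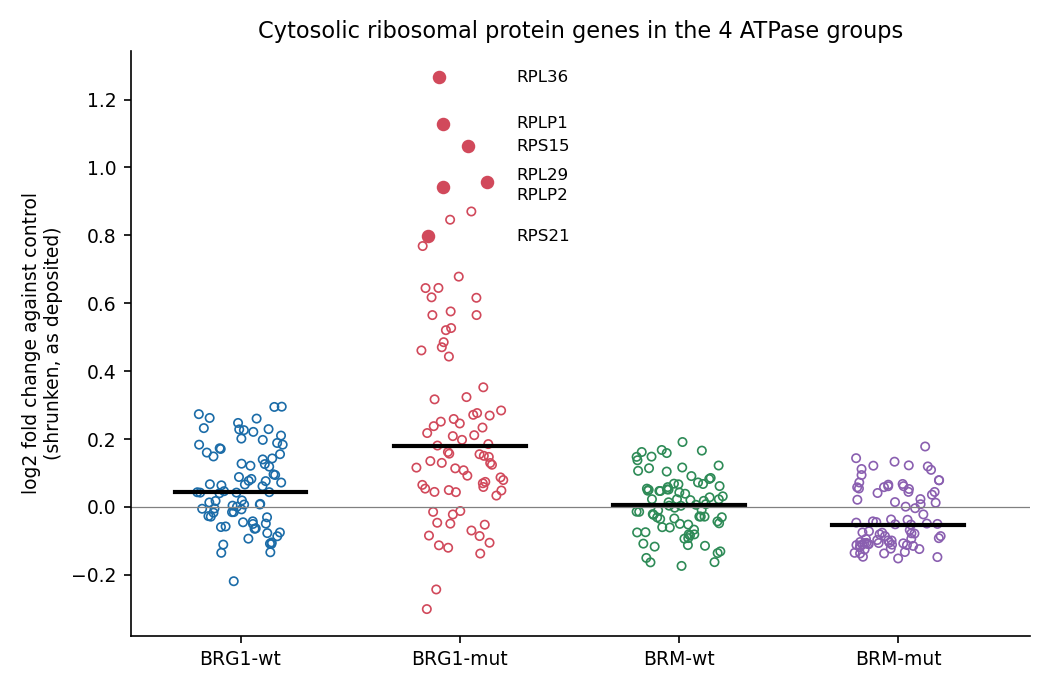
Shrunken log2 fold change against control (vertical axis) of the 81 ribosomal protein genes whose base mean reached 100, 1 point per gene, in the 4 ATPase groups. Filled points passed an adjusted p under 0.05, open points did not, and the black bar is the median. The points of BRG1-mut reach up to 1.27, and those of the other groups stay between -0.22 and 0.30. The degree of shrinkage may differ between groups.

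RPL36 (ENSG00000130255, chromosome 19 of GRCh37 from 5674958 to 5691886), a protein of the large subunit, had the largest change in BRG1-mut, with a log2 fold change of 1.27 (SE 0.32, adjusted p = 0.0169, DESeq2). Its base mean was 1971 and 3180 in the tables of BRG1-wt and BRG1-mut, against 1882 and 1356 in those of BRM-wt and BRM-mut. That of BRG1-mut stands above the other 3, in a gene chosen by its rise in that group. The annotated span of RPL36 overlaps HSD11B1L on its strand (base mean 55.5) and LONP1 and MICOS13 on the other (2345 and 243), and the sources do not say whether reads were counted by strand.

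RPLP1 (ENSG00000137818, chromosome 15 from 69745153 to 69748544) and RPLP2 (ENSG00000177600, chromosome 11 from 809965 to 812880) encode the acidic proteins that form the lateral stalk of the large subunit, where elongation factors bind. RPLP1 had a log2 fold change of 1.13 in BRG1-mut (SE 0.30, adjusted p = 0.023, DESeq2), and its base means in the 4 tables were 3707, 5648, 3638 and 2774. RPLP2 had 0.94 (SE 0.27, adjusted p = 0.0292, DESeq2), with base means, in the same order, of 6152, 8368, 5482 and 4791. RPLP0, the protein that anchors both to the ribosome, had 0.25 (SE 0.19, adjusted p = 0.614, DESeq2) and base means of 13548, 13719, 11959 and 12015. Both acidic proteins passed the test and their anchor did not, but the difference between them was not tested. Of the counts of RPLP0 and its pseudogenes, 28.3% lay at the gene.

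RPS15 (ENSG00000115268, chromosome 19 from 1438357 to 1440494) and RPS21 (ENSG00000171858, chromosome 20 from 60962159 to 60963576) belong to the small subunit. RPS15 had a log2 fold change of 1.06 in BRG1-mut (SE 0.31, adjusted p = 0.0295, DESeq2), with base means of 1056, 1571, 1040 and 774, and 48.6% of its counts and those of its pseudogenes lay at the gene. RPS21 had 0.80 (SE 0.26, adjusted p = 0.044, DESeq2), with base means of 8727, 11005, 7743 and 6970. RPL29 of the large subunit (ENSG00000162244, chromosome 3 from 52027538 to 52029911) had 0.96 (SE 0.28, adjusted p = 0.0316, DESeq2), with base means of 4105, 5823, 4188 and 3365. Its largest pseudogene, RPL29P4, had a base mean of 7706 and a log2 fold change of 0.47 in BRG1-mut (adjusted p = 0.261, DESeq2), and 31.0% of the counts of RPL29 and its copies lay at the gene. In all 6 genes the table of BRG1-mut had the highest base mean and that of BRM-mut the lowest. The genes were chosen by their rise in BRG1-mut, so a high base mean in that table is no further support.

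**Figure D3:**
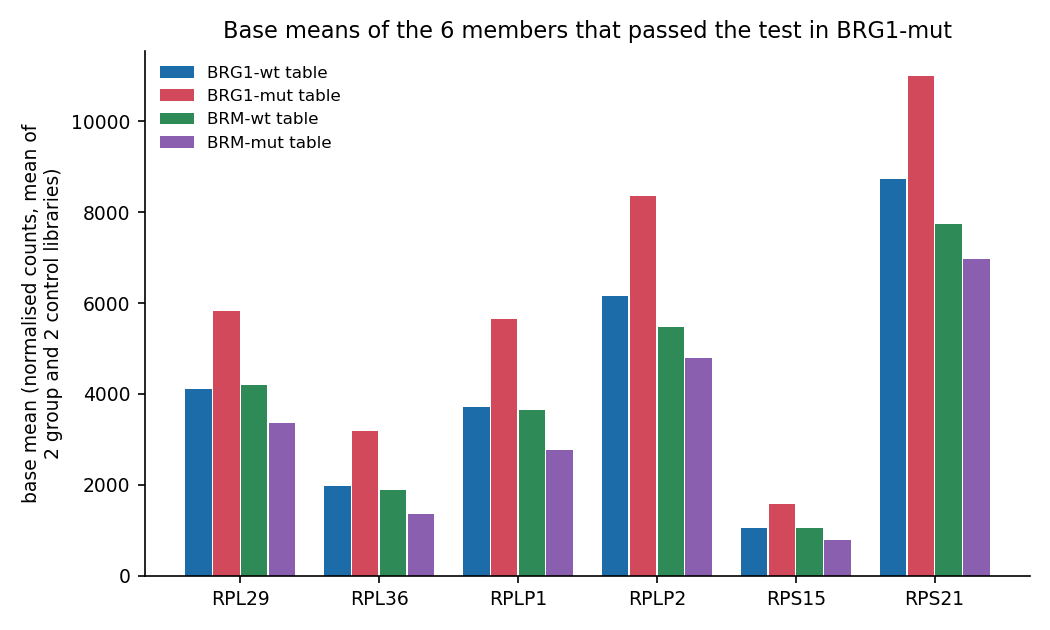
Base mean (vertical axis, normalised counts, mean of 2 libraries of a group and 2 control libraries) of the 6 genes that rose in BRG1-mut, with 1 bar for each of the 4 tables. The bar of BRG1-mut is the highest and that of BRM-mut the lowest for each gene, from 3180 and 1356 for RPL36 to 11005 and 6970 for RPS21.

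Since the control libraries are the same in every table, base means carry a difference between ATPase groups that the shrunken fold changes do not. After the tables were brought to one scale by the median of 11646 genes, the mean of the BRG1-mut libraries was higher than that of the BRM-mut libraries by 3816 normalised counts for RPL36 and by 8937 for RPS21. This takes the control part as equal in both tables on that scale, which was not tested, and the scale itself includes effects of the groups. Because the control cannot be below 0, the mean of the BRM-mut libraries is then at most 2544 for RPL36. Under the same condition, the ratio of BRG1-mut to BRM-mut is at least 2.50 for RPL36, 2.17 for RPLP1, 2.16 for RPS15, 1.86 for RPLP2, 1.85 for RPL29 and 1.68 for RPS21. These are limits on the deposited means with no error, as the spread between libraries is not in the tables. They hold for genes chosen by their rise in BRG1-mut and give no further support for it. Over the 81 genes, the log2 ratio of the BRM-mut base mean to the BRG1-mut base mean had a median of -0.16 (-1.32 to 0.14, 60 of 81 below 0), where the median of all genes is 0 by construction and 80% of them lay between -0.59 and 0.14.

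The order of the ribosomal protein genes in BRG1-mut followed the GC content of their transcripts. The 13 genes above 55% GC had a median log2 fold change of 0.77 (0.57 to 1.27), the 44 genes between 45% and 55% had 0.18 (-0.24 to 1.13) and the 24 genes below 45% had 0.07 (-0.30 to 0.49). The numbers that rose were 4 of 13, 2 of 44 and 0 of 24, against 19.5%, 0.399% and 0% of all genes of the same GC class and base mean. All genes moved with GC content too, with medians of 0.56, 0.0006 and -0.17 in the 3 classes. Over the 81 genes, Spearman's rho of the log2 fold change with GC content was 0.58 in BRG1-wt, 0.70 in BRG1-mut, 0.21 in BRM-wt and -0.68 in BRM-mut. Over all genes it was 0.58, 0.83, 0.24 and -0.75 (11492 to 11656 genes). These values are across genes of the same libraries, which share depth and base composition, and are given as a description. In BRM-mut the 13 genes above 55% GC had a median of -0.11, with all of them below 0, and the 24 genes below 45% had 0.06.

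**Figure D4:**
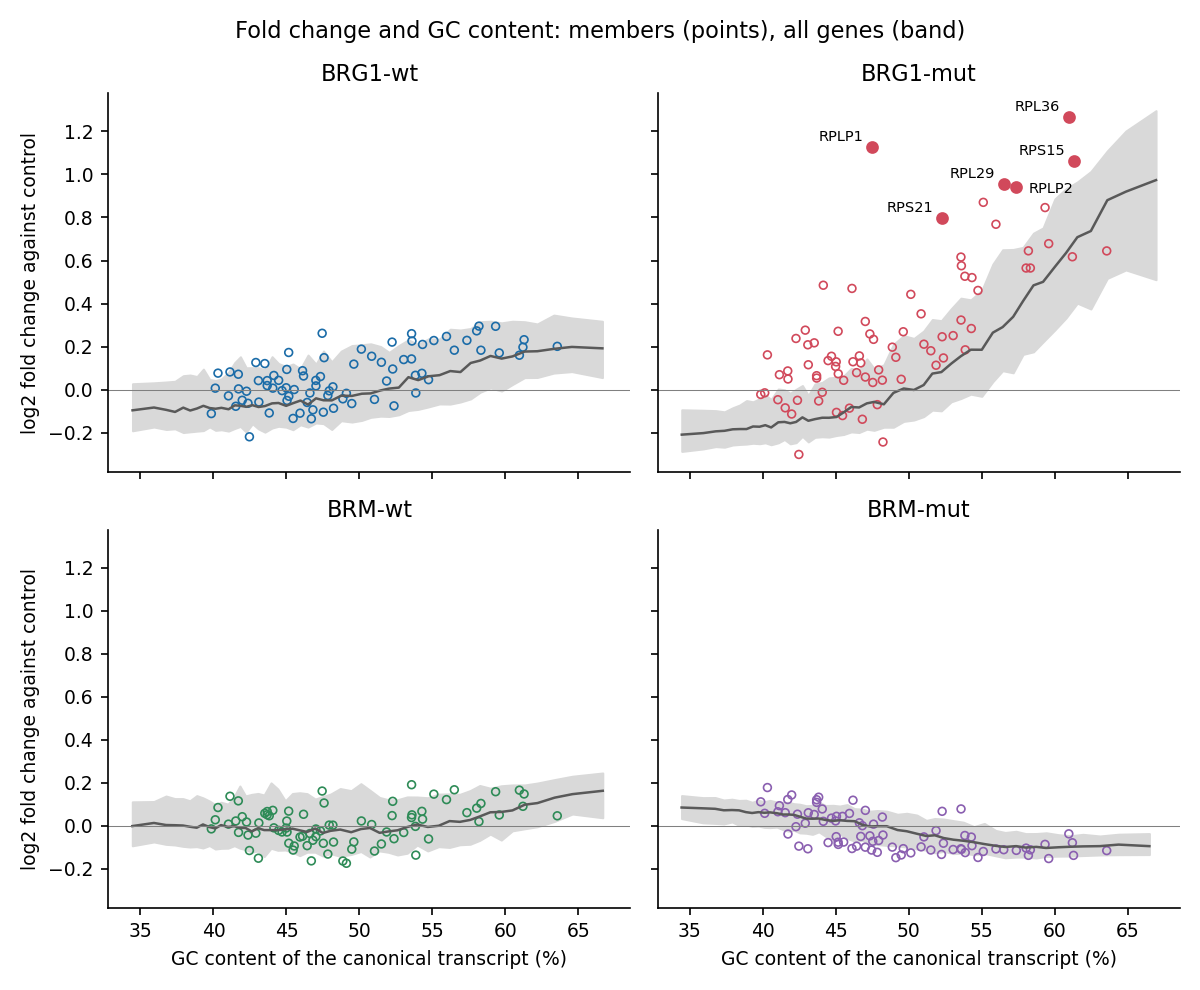
Log2 fold change against control (vertical axis) by GC content of the canonical transcript in percent (horizontal axis) in the 4 ATPase groups. Points are ribosomal protein genes (filled where adjusted p is under 0.05), the line is the median of all genes in 50 bins and the grey band their 10% to 90% range. In BRG1-mut the points follow the rise of the line and most lie above it, and RPLP1 at 47.4% GC lies far above the band.

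When the trend of all genes with exonic GC content was subtracted in BRG1-mut, 0 of the 82 ribosomal protein genes tested passed an adjusted p under 0.05 (from the deposited standard errors), against 0.0302% of all genes. At an unadjusted p under 0.05, 10 of the 81 genes whose base mean reached 100 passed, against 2.41% of all genes at that minimum. RPL36 then had a log2 fold change of 0.33, RPS15 0.25, RPS21 0.45, RPLP2 0.47 and RPL29 0.77. With the GC content of the canonical transcripts the values were 0.63, 0.35, 0.72, 0.60 and 0.67, with an adjusted p of 1 for each (from the deposited standard errors). RPLP1, whose GC content is near the median, had 1.17 after the subtraction (SE 0.30, unadjusted p = 0.000123, adjusted p = 0.18, from the deposited standard errors). It had the smallest adjusted p of the ribosomal protein genes. The median of the 81 genes, 0.18 as deposited, was 0.18 with 69 of 81 genes above the trend, 0.20 with the GC content of canonical transcripts in place of that of all exons, and 0.15 after GC content and transcript length were subtracted in turn. In BRG1-wt the corresponding medians were 0.06, 0.07 and 0.05.

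By subunit, 4 of 52 large subunit genes and 2 of 32 small subunit genes rose in BRG1-mut, against 4.86% of all genes tested. The medians were 0.17 and 0.20 over those whose base mean reached 100. The 12 genes on chromosome 19 were all above 0, with a median of 0.62 (0.19 to 1.27) and a median GC content of 57%, against 0.13 and 46.6% for the 69 genes on other chromosomes. Among the genes just outside the threshold in BRG1-mut were RPL28 (0.87, SE 0.29, adjusted p = 0.0526, DESeq2) and RPS9 (0.85, SE 0.29, adjusted p = 0.0634, DESeq2).

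The lowest values in BRG1-mut were those of RPS3A (-0.30, SE 0.20), RPS7 (-0.24, SE 0.17), RPS4X (-0.14, SE 0.15), RPL7L1 (-0.12, SE 0.16) and RPL22 (-0.11, SE 0.16), with adjusted p between 0.536 and 0.749 (DESeq2). Among the highest in BRG1-wt were RPL35 (0.30), RPS9 (0.29), RPLP1 (0.26) and RPS10 (0.26), each with an SE of 0.18 or 0.19, and the lowest were RPS3A (-0.22), RPL27A (-0.14), RPL7L1 (-0.13), RPL22L1 (-0.11) and RPL6 (-0.11). In BRM-wt the range ran from RPS12 (-0.17), RPS27 (-0.16), RPL27A (-0.16), RPL39 (-0.15) and RPL13A (-0.14) to RPS10 (0.19), RPL29, RPL36, RPLP1 and RPS9 (0.16 to 0.17). In BRM-mut it ran from RPS2 (-0.15), RPS12 (-0.15), RPL13 (-0.15), RPS15 (-0.14) and RPL35 (-0.14) to RPL7 (0.18), RPL22 (0.14), RPS24 (0.13), RPS27L (0.12) and RPL23 (0.12). None of these values in the 3 groups passed the test (the smallest adjusted p of the 84 genes was 0.999881 in BRG1-wt, DESeq2).

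Of the genes with known roles outside translation, the 9 that bind MDM2 or form the particle with RPL5 and RPL11 had a median log2 fold change of 0.09 in BRG1-mut (-0.24 to 0.23), and 0 of 9 passed the test in any group. RPL5 had -0.11 (SE 0.15) and RPL11 had 0.04 (SE 0.15), with base means of 31826 and 56413 in that table. Of the 18 Diamond-Blackfan anaemia genes, 0 passed the test in any group, and their median in BRG1-mut was 0.16. Over all genes tested, 4.86% rose in BRG1-mut. RPS19, the gene most often affected in that disease, had 0.77 (SE 0.27, adjusted p = 0.0734, DESeq2). RPS6, the substrate of the S6 kinases, had -0.05 (SE 0.15), RPS27A, which is made as a fusion with ubiquitin, had -0.08 (SE 0.16), and RPSA had 0.05 (SE 0.19). RPL3 at the peptidyl transferase centre had 0.52 (SE 0.23, adjusted p = 0.186, DESeq2), RPL10A had 0.35 (SE 0.19), RPL12 at the stalk base had 0.15 (SE 0.18) and RPS24 had -0.05 (SE 0.16). The 5 measured paralogues had a median of 0.09, from RPL7L1 at -0.12 to RPL26L1 at 0.27.

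The other genes of translation gave the setting for these values. In BRG1-mut, 4.86% of all 13548 genes tested rose, and 19.5% of those above 55% GC whose base mean reached 100. No list was tested against these shares. Of 4 ribosomal proteins with other symbols, 0 passed the test in BRG1-mut, and the log2 fold changes were 0.76 for FAU (SE 0.28, adjusted p = 0.0802, DESeq2), 0.18 for RACK1 and 0.10 for RPL36AL. Of 13 elongation and other TOP genes, 2 rose in BRG1-mut, EEF2 (1.02, SE 0.30, adjusted p = 0.0296, DESeq2), which moves the ribosome along the mRNA, and EEF1D (0.87, SE 0.28, adjusted p = 0.0447, DESeq2). Their median was -0.09, EEF1A1 had -0.31 (SE 0.20), and EEF1G was listed at 0 in every table. Whether that 0 reflects the expression of EEF1G is not known. Of 24 initiation factors, 0 passed the test, with a median of -0.13 in BRG1-mut. Of 35 genes of ribosome biogenesis and RNA polymerase I, RRS1 (1.01, SE 0.24, adjusted p = 0.0132, DESeq2) and NHP2 (0.81, SE 0.26, adjusted p = 0.046, DESeq2) rose, with a median of -0.06. Of 12 genes of TOP and growth control, RPTOR, a subunit of the mTOR complex, rose (0.84, SE 0.25, adjusted p = 0.0312, DESeq2), with a median of 0.01. None of the genes of these lists passed the test in the other 3 groups.

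The 77 genes of the mitochondrial ribosome had a median of 0.03 in BRG1-mut over the 72 whose base mean reached 100, with a median GC content of 48.2%, and 5 of them rose: MRPL41 (1.32), MRPL4 (1.05), MRPL28 (0.99), MRPS34 (0.94) and MRPL34 (0.72). Among the pseudogenes of the cytosolic genes, 98 whose base mean reached 100 had a median of 0.18 in BRG1-mut, and 6 rose. Both counts stand beside the 4.86% of all genes tested that rose in BRG1-mut, and neither was tested against it. RPS2P46 (1.09, SE 0.30, adjusted p = 0.0242, DESeq2) and RPS2P5 (0.88, SE 0.28, adjusted p = 0.0395, DESeq2) are copies of RPS2, which had 0.68 at the gene (adjusted p = 0.0885, DESeq2). RPL35P5 (1.01), RPL13AP5 (0.93) and RPLP0P9 (0.84) were also among them, while RPL35, RPL13A and RPLP0 did not pass the test.

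Splicing was compared within pairs of libraries, where each ATPase library had the control that carries its replicate number. A listed event has 3 exons, and its PSI is the authors' estimate of the fraction of transcripts that include the middle one. Of the counts of a gene and its pseudogenes, 1.92% lay at the gene for RPL17, 10.9% for RPS3A, 16.7% for RPS2, 28.3% for RPLP0 and 99.4% for RPLP1. How reads of such copies bear on a PSI is not known, so it need not be the fraction in the cells. All listed events had a Bayes factor above 10, and a library pair with no value had no listed change for that event, so that its PSI is not known. In the 8 tables, 87 listings with all 3 exons inside a ribosomal protein gene were found, in 18 genes and at 28 distinct exons, out of 5191 listings at 2969 exons. Genes with a listed event made up 22.2% of the 81 whose base mean reached 100, against 17.1% of all protein-coding genes with that minimum, and 23.5% of 68 against 19% at a base mean of at least 1000. The median absolute change in PSI was 0.14 in these genes and 0.25 over all events, and 58.6% of their listings had the highest Bayes factor given (1e+12), against 14.3% of all. A change of at most 0.05 was found in 16 of the 87 listings (18.4%), against 7.96% of all.

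The number of distinct exons was 11 in BRG1-wt, 20 in BRG1-mut, 17 in BRM-wt and 14 in BRM-mut. An event was listed in both replicates of a group 22 times, and the change had the same direction in 4 of them, namely in 1 of 4 in BRG1-wt, 1 of 3 in BRG1-mut, 0 of 10 in BRM-wt and 2 of 5 in BRM-mut. Over all genes the numbers were 30 of 57, 134 of 145, 13 of 293 and 27 of 48. The control libraries differed among themselves: of 19 events with a PSI for both, 6 differed by at least 0.2 (31.6%, against 36.7% of 621 events of all genes), with a median difference of 0.09 and a largest of 0.48. Each event had the same control PSI in every table of the same replicate number (24 of 24), as the shared control requires.

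Of the 28 exons, 26 have the coordinates of an annotated exon, 14 are exons of the canonical transcript, and 5 join 1 or more canonical exons with the intron beside them. The length of 18 is not a multiple of 3, and 23 overlap the coding sequence of the canonical transcript. In 10 of them a snoRNA lies between the outer exons of the event, and 29 of the 84 genes hold 60 snoRNAs in all. Of the 5 canonical coding exons listed in at least 4 library pairs, 4 are shown from GRCh37 in the direction of transcription, with the exon in capitals, 20 bases of the intron before it and 10 bases of the intron after it. They are exon 2 of RPL41 (chr12:56510953-56511005, plus strand), exon 5 of RPL4 (chr15:66794116-66794270, minus strand), exon 6 of RPS2 (chr16:2012488-2012677, minus strand) and exon 3 of RPS3A (chr4:152022107-152022324, plus strand).
RPL41: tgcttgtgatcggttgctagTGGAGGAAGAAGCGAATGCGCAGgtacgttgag
RPL4: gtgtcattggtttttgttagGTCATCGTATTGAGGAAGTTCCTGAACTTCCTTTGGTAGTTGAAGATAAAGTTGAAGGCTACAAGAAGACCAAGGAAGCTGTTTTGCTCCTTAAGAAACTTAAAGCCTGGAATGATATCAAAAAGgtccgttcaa
RPS2: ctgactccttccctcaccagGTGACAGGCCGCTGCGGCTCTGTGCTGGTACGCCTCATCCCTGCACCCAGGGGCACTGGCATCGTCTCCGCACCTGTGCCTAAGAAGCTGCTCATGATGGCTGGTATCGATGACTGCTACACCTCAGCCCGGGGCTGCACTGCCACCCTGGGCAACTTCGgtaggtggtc
RPS3A: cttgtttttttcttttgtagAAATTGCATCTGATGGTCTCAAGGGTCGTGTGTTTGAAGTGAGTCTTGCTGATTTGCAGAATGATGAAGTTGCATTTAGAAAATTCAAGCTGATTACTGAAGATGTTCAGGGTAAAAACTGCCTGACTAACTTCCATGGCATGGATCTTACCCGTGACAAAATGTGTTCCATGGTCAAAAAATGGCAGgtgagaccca
Each of these exons is preceded by AG and followed by GT. Their lengths are 23, 125, 160 and 188 bases, and the exon not shown, exon 5 of RPLP0, has 147, the only multiple of 3 among the 5.

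RPLP1 had the event with the most listings. Its middle part of 1641 bases (chromosome 15 from 69745986 to 69747626) is the annotated form that joins exons 2 and 3 and retains the intron between them. The control libraries had PSI values of 0.89 and 0.43, with 0.45 and 0.39 in BRG1-wt and 0.31 and 0.20 in BRG1-mut. It was 0.24 and 0.96 in BRM-wt, and 0.59 in replicate 2 of BRM-mut. Both BRG1-wt and both BRG1-mut libraries had a lower PSI than the control of their number. The differences were 0.44 and 0.04 in BRG1-wt and 0.58 and 0.23 in BRG1-mut, where the control libraries were 0.46 apart. This PSI sets the whole middle part against its absence. It does not measure the retained intron apart from exons 2 and 3. The Bayes factor was 15.7 for replicate 2 of BRG1-wt and 1e+12 for the other 6 listings. RPLP1 is the same gene whose total counts rose in BRG1-mut.

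RPL41 encodes the smallest ribosomal protein, and exon 2 of it has 23 bases. The control libraries had PSI values of 0.49 and 0.01, with 0.34 and 0.29 in BRG1-wt, 0.27 in BRG1-mut replicate 1, 0.34 in BRM-wt replicate 2 and 0.01 and 0.27 in BRM-mut. The changes were downward in replicate 1 and upward in replicate 2 of every group listed, and the control libraries lay at both ends of the range. With such a control pair, no direction can be given for a group.

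RPL17 has an exon of 98 bases outside the coding sequence of the canonical transcript (chromosome 18 from 47018106 to 47018203), listed with 2 forms of the exon before it. With the form from 47018628 to 47018834, the PSI was 0.49 and 0.18 in control, 0.26 in BRG1-wt replicate 1, 0.11 in BRG1-mut replicate 1, and 0.15 and 0.74 in BRM-wt. In replicate 1 all 3 groups were lower, and in replicate 2 only BRM-wt was listed and was higher. Exon 3 of RPL17, with 41 bases, had 0.55 in control replicate 2, 0.41 in BRM-wt and 0.38 in BRM-mut.

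RPL4 exon 5 had a PSI of 0.96 and 0.70 in control, 0.79 and 0.90 in BRG1-wt, 0.90 in BRG1-mut replicate 2, and 0.79 in both BRM-mut libraries. All values of the ATPase groups lay between those of the control libraries. RPS3A exon 3 had 0.74 and 0.86 in control, 0.83 and 0.69 in BRG1-wt, 0.64 in BRG1-mut replicate 2 and 0.76 in BRM-mut replicate 2. RPLP0 exon 5, with 147 bases, had 0.23 and 0.31 in control, 0.33 in BRG1-wt replicate 1, 0.31 and 0.22 in BRG1-mut and 0.32 and 0.25 in BRM-wt. For RPS3A and for RPLP0, the listed values of replicate 1 were above their control and those of replicate 2 below.

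RPS2, a protein of the entry channel for mRNA, had 5 exons listed, more than any other gene here. Exon 6 had a PSI of 0.54 and 0.75 in control, 0.68 in BRG1-wt replicate 1, 0.78 and 0.64 in BRG1-mut, 0.87 and 0.52 in BRM-wt and 0.60 in BRM-mut replicate 2. The values of replicate 1 were above their control and those of replicate 2 below. Exon 5, with 174 bases, had 0.75 and 0.61 in control, 0.52 in BRG1-wt replicate 1 and 0.98 in BRG1-mut replicate 2. A form of 713 bases around exon 3 had 0.84 and 0.61 in control, 0.54 in BRG1-mut replicate 1, 0.53 and 0.85 in BRM-wt and 0.97 in BRM-mut replicate 1.

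RPS3, a protein of the same channel, had a form of 807 bases that joins exons 3 and 4 with the intron between them (chromosome 11 from 75112684 to 75113490). Its PSI was 0.76 and 0.67 in control, 0.99 and 0.75 in BRM-mut, and 0.62 and 0.98 in BRM-wt. Both BRM-mut libraries were higher than their control, by 0.23 and 0.08, and the value of replicate 2 lay within the range of the control libraries. RPS15A had a form of 97 bases around exon 3 (chromosome 16 from 18799385 to 18799481) with 0.80 and 0.92 in control, 0.60 and 0.79 in BRM-mut, 0.92 in BRG1-mut replicate 1 and 0.94 and 0.61 in BRM-wt. Both BRM-mut libraries were lower than their control, by 0.20 and 0.13, and both lay below the lower control.

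**Figure D5:**
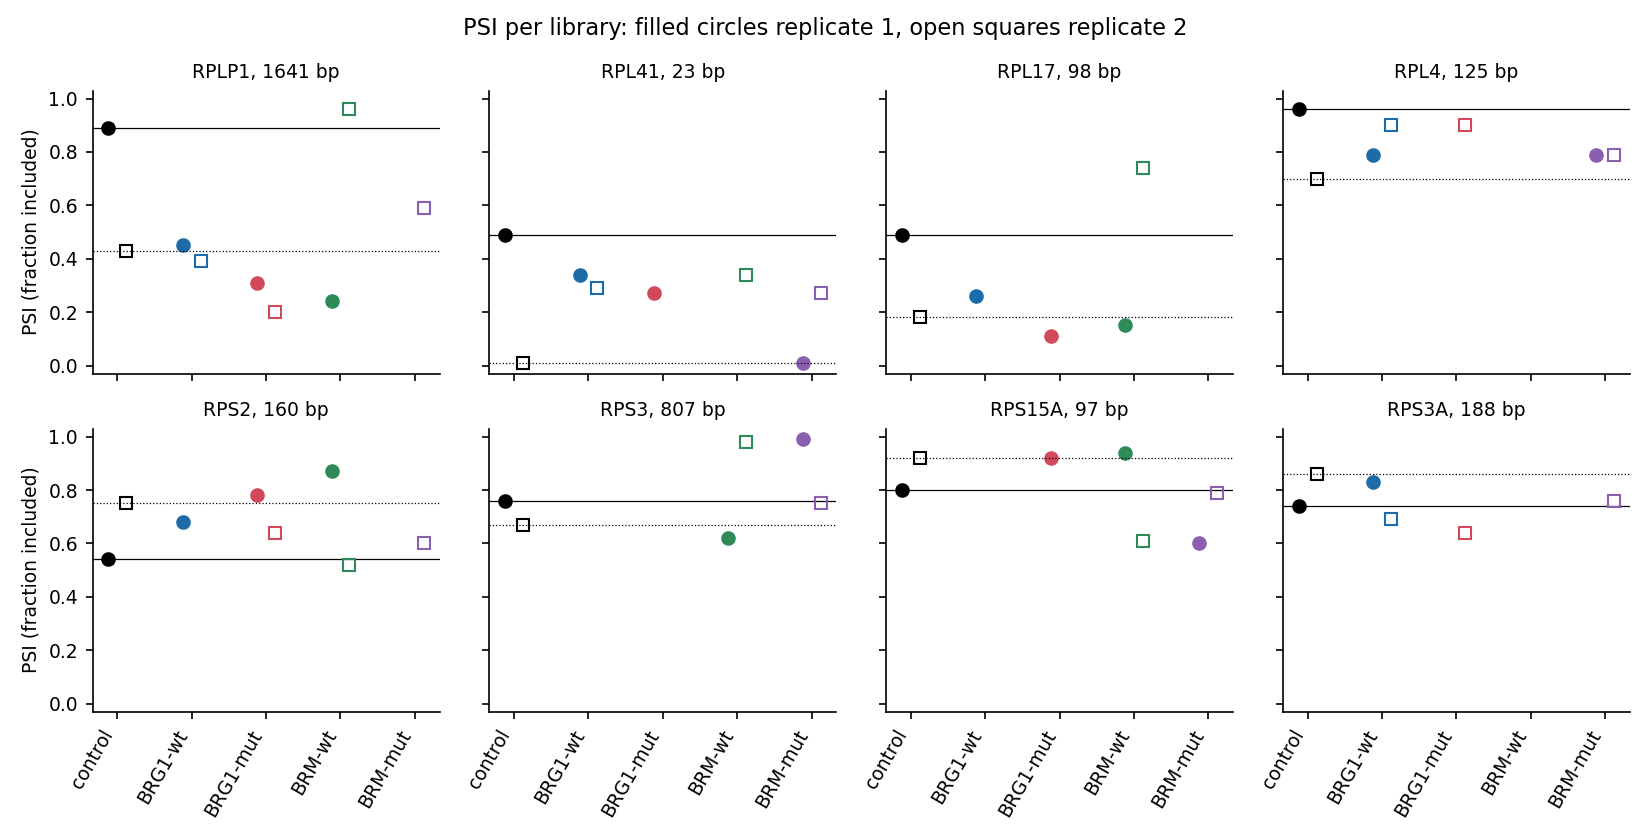
PSI (fraction of transcripts with the middle exon, vertical axis) in each library with a listed event for 8 exons of ribosomal protein genes, by group (horizontal axis), with filled circles for replicate 1 and open squares for replicate 2. Solid and dotted lines are the PSI of control replicates 1 and 2. For RPLP1, RPL41 and RPL17 the control libraries lie 0.46, 0.48 and 0.31 apart, and the BRM-wt libraries lie on opposite sides of their controls for RPLP1, RPL17, RPS2, RPS3 and RPS15A.

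The other exons had smaller or single changes. The largest was that of a 121-base exon of RPS27, annotated in a transcript subject to nonsense-mediated decay, which had 0.76 in control replicate 1 and 0.29 in BRM-mut (Bayes factor 10.7). RPL12 exon 3 had 0.92 in control replicate 2 and 0.67 in BRG1-wt, RPL10 exon 4 had 0.44 and 0.63 in BRG1-mut, RPL7L1 exon 2 had 0.43 in control replicate 1 and 0.30 in BRG1-wt, and RPS2 exon 4 had 0.17 in control replicate 2 and 0.27 in BRG1-mut. A 37-base form of RPS2 exon 5 had 0.12 in control replicate 1, 0.03 in BRG1-wt and BRM-wt and 0.04 in BRG1-mut, and a 43-base form of RPS15A had 0.06 and 0.08 in control, 0.14 in BRG1-mut replicate 2, 0.02 in BRM-wt replicate 2 and 0.03 in BRM-mut replicate 1. Changes of at most 0.05 were listed for RPS20, RPS14, RPL29, the 84-base exon of RPL7L1 and the 78-base form of RPLP0. RPL13 changed by 0.07 and 0.05, and RPS9 by 0.03 to 0.13. Of 6 listings that reach beyond the annotated gene, 3 concern a 67-base exon of RPL17 and 3 a 104-base exon of RPS3A.

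When the rules of the study's methods for affected exons were applied to all genes, 5 of the 11 exons were kept in BRG1-wt, 12 of 20 in BRG1-mut, 6 of 17 in BRM-wt and 6 of 14 in BRM-mut, against 85.3%, 85.2%, 75.2% and 82.4% of the exons of all genes. The events of RPLP1 with 1641 bases, of RPL41 and of exon 6 of RPS2 were dropped in each group. Exons with opposite effects in the replicates of a group were discarded from that group first. Those with opposite effects between the groups where they remained were discarded next. Then those under 50% of the longest remaining form of the group with the same start or end were discarded. A group whose replicates disagreed did not enter the comparison between groups. The 807-base form of RPS3 was thus kept in BRM-mut, though it changed by -0.14 in BRM-wt replicate 1. The 37-base form of RPS2 was kept where its longer form had already been discarded. Another order or a stricter reading of the rules was not tried. Among the kept exons, the 807-base form of RPS3 in BRM-mut was listed in both replicates, and the others in 1.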

How the data were processed

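RNA-seq was made from 10 libraries of C33A cells, 2 in each of 5 groups. Per the sources, the authors mapped reads to GRCh37 with TopHat2 2.0.4, counted them with HTSeq 0.6.1 and ran DESeq2 with 2 libraries per group. The deposited log2 values are shrunken fold changes, and the deposited p-values are from the Wald test, unadjusted and adjusted. The base mean, treated as a score of level, is the authors' mean of normalised counts over 4 libraries. The PSI is a fraction that the authors estimated with MISO, and the deposited Bayes factor is a score that reaches 1e+12. These columns hold the authors' own comparisons and were used because the tables analysed hold no counts per library, so that no count model was fitted. A second copy of the BRG1-wt table was not used.

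The members and the gene lists were chosen with earlier results of these data known. Named genes were those that passed an adjusted p under 0.05, the 5 highest and 5 lowest of each group, those with an exon event, and a fixed list by role. Gene features came from GENCODE 44 on GRCh37. Trends were medians in 50 bins of genes whose base mean reached 100, subtracted from fold changes. The p-values were then computed from the deposited SE and adjusted again by the Benjamini-Hochberg method. This step was tested on simulated data where the trend with GC content was the same at every base mean. That test cannot show how the step acts on genes of low base mean that lack the trend. Python 3.11.15, pandas 2.3.3, numpy 2.4.6, scipy 1.17.1 and matplotlib 3.10.9 were used. PECAM1 of the marker list was not matched.
Some genes and sequences are not reported here.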

Additional observations from a re-analysis of the deposited data

How the results depend on the processing

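No paired analysis was possible because the expression tables hold no values per library, and the splicing tables already pair each library with the control of its number. Over the alternatives, the median log2 fold change of the ribosomal protein genes ran from 0.12 to 0.27 in BRG1-mut (0.18 as deposited), 0.03 to 0.09 in BRG1-wt (0.04), -0.08 to -0.02 in BRM-mut (-0.05) and -0.00066 to 0.01 in BRM-wt (0.01), where its sign changed with the median of all genes subtracted.

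The number of genes called in BRG1-mut, 6, was 0 at an adjusted p under 0.01, 3 with a log2 fold change of at least 1, 2 with all genes that have a p-value in the adjustment, 11 with the median of all genes subtracted, 12 with the trend in base mean subtracted, 7 with adjustment over genes whose base mean reached 100, 7 with the length trend and 5 with the length of canonical transcripts subtracted. It was 0 with the GC trend subtracted, also with the GC content of canonical transcripts and with their GC content and then length. The alternatives on canonical transcripts were chosen after seeing the data. In BRM-mut the GC trend gave 1 in place of 0, RPL10L with a base mean of 0.258, and 3098 genes in all, of which 4 had a base mean of at least 100. The trends were measured on genes above that base mean and also subtracted from those below it.

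The numbers of exons were 11 in BRG1-wt, 20 in BRG1-mut, 17 in BRM-wt and 14 in BRM-mut. They were 6, 8, 7 and 4 where PSI changed by 0.2 or more. With both replicates in one direction they were 1, 1, 0 and 2. Under the study's rules as read above they were 5, 12, 6 and 6. Leaving out each replicate in turn gave 5 to 10 exons in BRG1-wt, 11 to 12 in BRG1-mut, 12 to 14 in BRM-wt and 9 to 10 in BRM-mut, with 5 in BRG1-wt without replicate 1, 12 and 11 in BRG1-mut and 9 in BRM-mut without replicate 1 below the full number by over 1.5 times. For the expression tables no library could be left out. Over all alternatives, 16 of 24 counts of exons moved by over 1.5 times.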
